A study of Mus musculus with 9 samples.

Results

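The genes described here encode nuclear receptors, and they were measured in the growth plate of the tibia of newborn mice, in 3 of its layers. The list holds 45 genes, taken by gene name, in 6 classes that are thyroid, retinoid, vitamin D, steroid, lipid and bile acid sensing, and orphan receptors. Of these, 43 were named by a probe set that matches a single gene, among 18193 genes in all, and each gene was represented by its probe set with the highest mean over the 9 arrays. Nr1h2 and Nr2e3 were not analysed here. After a filter on low values 26 of the 43 were tested, among 11313 genes.

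All mice were wild-type Black Swiss pups collected at birth (age 0 days), with no treatment. The groups are the round layer, the flat layer and the hypertrophic layer of the proximal tibia, each cut by hand out of unfixed cryosections, and each layer has 3 arrays. A sample pooled 18 to 20 tibiae from a single litter of 9 to 10 pups, and the labels speak of 3 litters. The replicate number was taken to mark the litter, so that each litter gave all 3 layers. No step of the protocol separates chondrocytes from neighbouring cells.

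Nuclear receptors are transcription factors that bind DNA in pairs or alone, and many change their activity when a small lipophilic hormone or metabolite binds to them. The thyroid, retinoic acid, vitamin D and PPAR receptors work as partners of the retinoid X receptors, the steroid receptors pair with themselves, and the orphan receptors have no agreed natural hormone. In the growth plate these receptors are studied because thyroid hormone, oestrogen, glucocorticoids, retinoic acid and vitamin D all alter how long bones lengthen. Chondrocytes there start as small round cells near the joint, stack into columns as flat cells, and enlarge as hypertrophic cells at the border with bone. Messenger RNA of a receptor is not a measure of its activity, which depends on the ligand.

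The layer labels were checked against marker genes. Prg4, the joint lubricant gene, had mean signals of 15342 ± 3014, 385 ± 281 and 199 ± 54.4 in round, flat and hypertrophic samples (SD, n = 3 each), and Col10a1, the collagen of hypertrophic cells, had 139 ± 111, 664 ± 239 and 11857 ± 918. Signals are Affymetrix MAS5 intensities, and the arrays had median signals of 123 to 152. The round array of litter 1 had 3'/5' ratios of 4.25 for actin and 2.59 for Gapdh, measures of RNA integrity, where the 8 other arrays had 1.45 to 2.06 and 0.922 to 1.28. By skeletal muscle score the flat array of litter 3 stood highest. The score is the mean log2 level of 19 markers set against the mean of all arrays, and it was 1.47 there. The remaining arrays scored 0.42 and 0.44 in the flat layer, -1.04 to -0.17 in the round layer and -0.88 to 0.56 in the hypertrophic layer. Results of receptor genes that change when either array is left out are named beside their values. For the genes of the other lists only counts were compared, as given in the closing section.

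Across the layers, most receptor genes that differed were highest in the round layer. Of the others, Vdr alone had its highest signal in the hypertrophic layer, and Ppara and Rarb had theirs in the flat layer. Set against the round layer, the hypertrophic layer had 1 receptor gene that rose (Vdr) and 9 that fell (Thra, Rxra, Rxrb, Esr1, Nr1d2, Rora, Nr4a1, Nr4a2 and Nr4a3) among the 26 tested, at an adjusted p under 0.05 from limma over all genes. Of all genes tested, 12.4% rose, 12.7% fell and 25.1% did either in that comparison. The flat against the round layer had 3 receptor genes that rose (Vdr, Ppara and Rarb) and 6 that fell (Rxra, Esr1, Nr1d1, Nr4a1, Nr4a2 and Nr4a3), where 8.39% of all genes rose, 8.64% fell and 17.0% did either. Between the hypertrophic and the flat layer Vdr rose and Ppara fell, where 6.12% of all genes rose, 5.22% fell and 11.3% did either.

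In total 12 of the 26 passed limma's F test for any difference among layers, which 28.4% of all genes passed. In at least 1 of the 3 pairwise comparisons 13 passed, and the share of all genes that did so was not computed. The member that passed a pairwise comparison and not the F test was Rarb, with an adjusted p of 0.0574. A further comparison set the flat layer against the mean of the other layers, and there Ppara rose and Esr1 and Nr1d1 fell. Of all genes, 4.76% rose, 4.89% fell and 9.65% did either in that comparison. The median log2 difference of the 26 receptor genes was -0.38 for hypertrophic minus round, -0.15 for flat minus round and -0.15 for hypertrophic minus flat, beside 0.01, -0.01 and 0 over all tested genes. Receptor genes with a difference below 0 numbered 18, 17 and 17 of 26 in the same order.

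**Figure D1:**
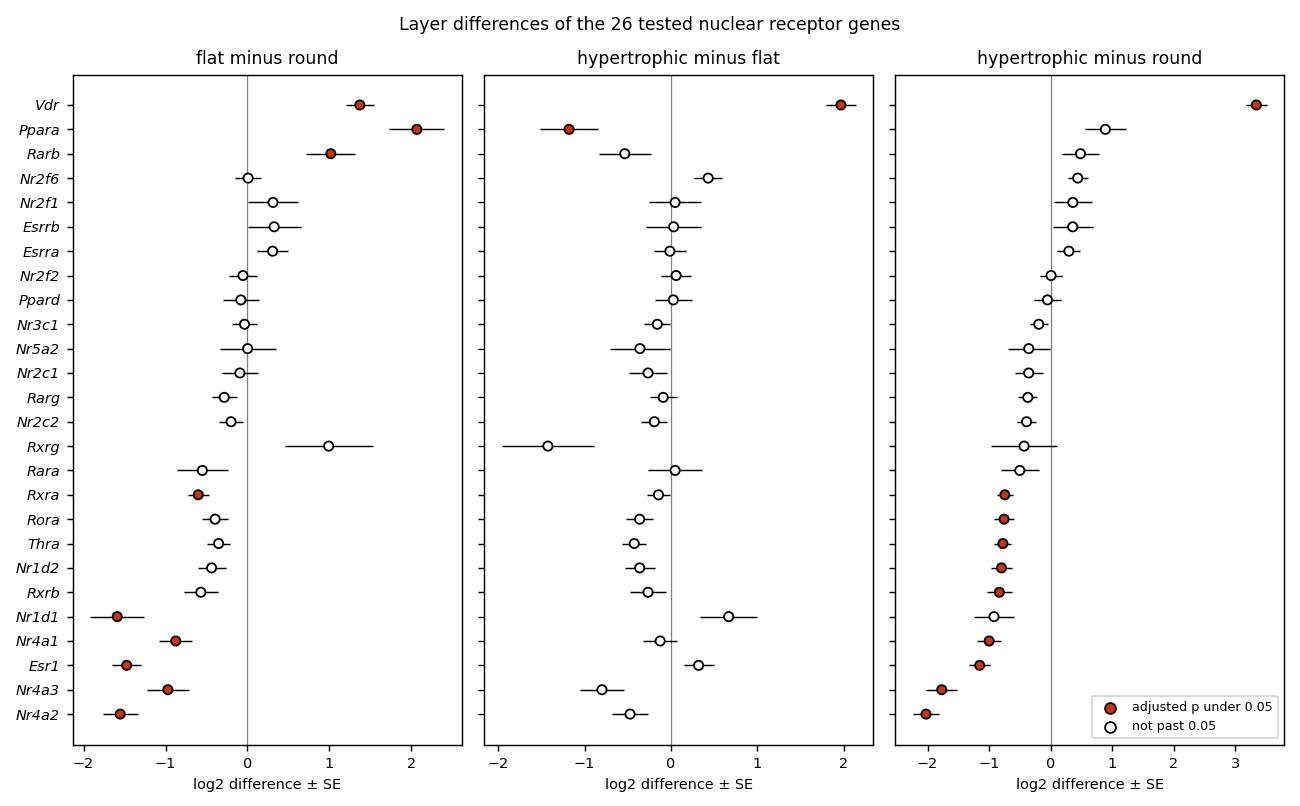
Log2 differences (x axis, log2(signal + 26) scale) with standard errors for the 26 tested nuclear receptor genes (y axis) in the 3 pairwise layer comparisons. Filled points passed an adjusted p of 0.05. Vdr lies farthest to the right for hypertrophic minus round at 3.34, and Nr4a2 farthest to the left at -2.03.

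**Figure D2:**
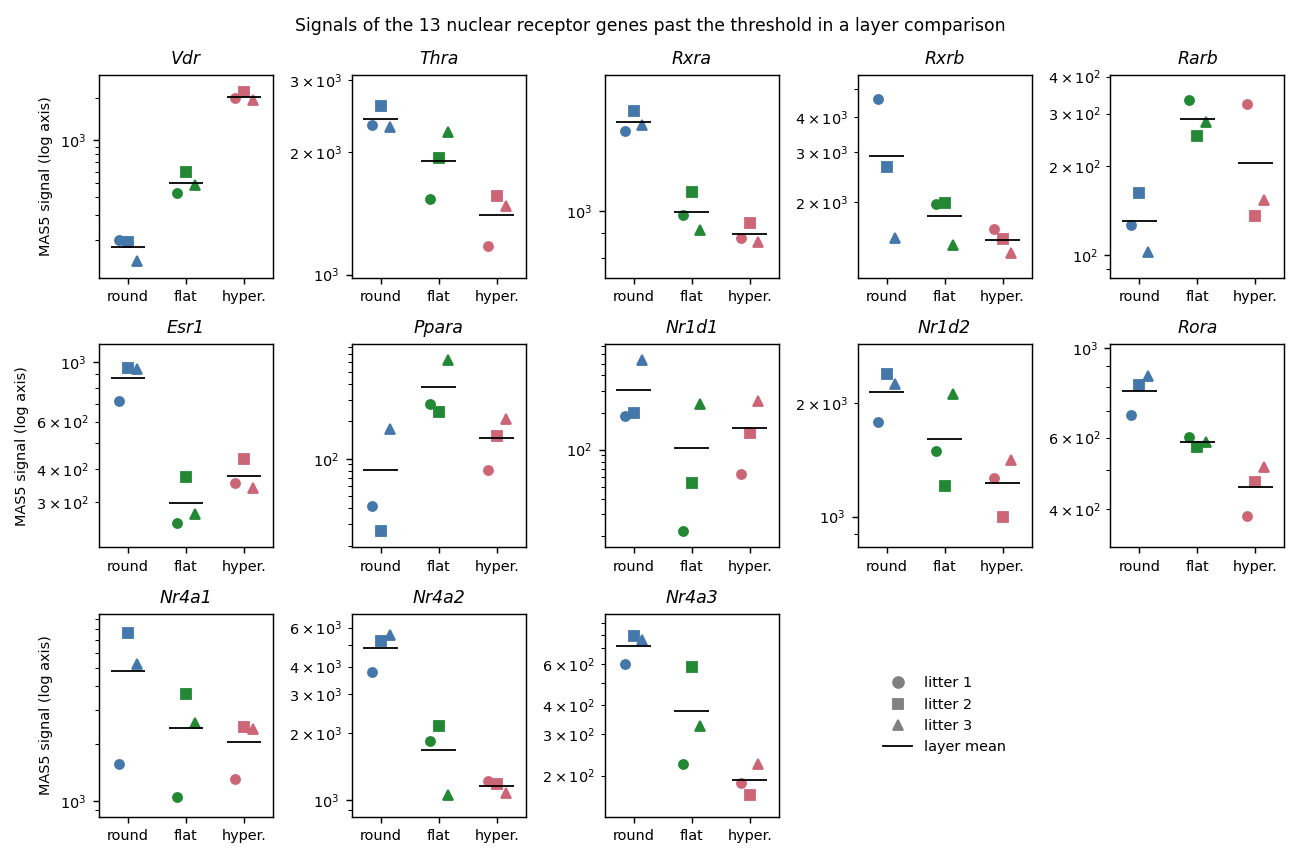
MAS5 signals (y axis, log scale, a different range in each panel) of the 13 receptor genes that passed in a layer comparison, by layer (x axis). Each point is an array, its shape gives the litter, and the bar is the mean of the layer's 3 arrays. The layers do not overlap for Vdr and Rora, and the round arrays lie above both other layers for Thra, Rxra, Esr1, Nr4a2 and Nr4a3 too.

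Vdr encodes the vitamin D receptor, which binds the active form of vitamin D as a partner of a retinoid X receptor and is best known for its part in calcium and phosphate balance. On the probe set 1418176_at Vdr had signals of 198, 194 and 143 in the round layer, 423, 597 and 489 in the flat layer and 1973, 2202 and 1921 in the hypertrophic layer. Each layer's arrays lay wholly above those of the layer before it, and the steps were seen in all litters. The hypertrophic layer was 10.1-fold above the round layer (log2 difference 3.34 ± 0.17, SE; limma adjusted p = 6.78e-08). It was 3.92-fold above the flat layer (1.97 ± 0.17, limma adjusted p = 3.11e-05), and the flat layer was 2.59-fold above the round layer (1.37 ± 0.17, limma adjusted p = 0.000164). A separate Vdr probe set gave log2 differences of 3.43, 2.16 and 1.28 in the same order, and all passed. The step between the flat and the round layer no longer passed with the muscle score as a covariate (1.01, limma adjusted p = 0.246).

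The sequence before the Vdr start site is shown because this gene had the steepest layer gradient among the receptors. It is the 250 bases upstream of the start in the RefSeq annotation of GRCm38.p6, chr15:97908297-97908546, minus strand, written 5′ to 3′ with each GGGCGG, a GC box that can bind Sp1, in capitals. The window holds 3 such motifs, counted on both strands, and 8.47% of the 32851 promoters of the same length hold at least 3. It holds no copy of AGGTCA, the core element of many nuclear receptor binding sites, which occurs at least once in 14% of promoters. The motifs were chosen after the sequences were seen, and a match is a description of the letters.
Vdr: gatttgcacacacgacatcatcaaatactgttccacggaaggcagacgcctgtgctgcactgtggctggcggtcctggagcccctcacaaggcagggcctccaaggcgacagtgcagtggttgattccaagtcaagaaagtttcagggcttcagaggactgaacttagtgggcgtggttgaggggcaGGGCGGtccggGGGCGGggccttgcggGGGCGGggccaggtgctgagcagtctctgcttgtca

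Markers of other cell types rose along the same layers as Vdr. Of 9 tested osteoclast markers, 9 were higher in the hypertrophic layer than in the round layer and 8 than in the flat layer. Their summed signal was 5357 to 6591, 13261 to 18198 and 74240 to 98535 in round, flat and hypertrophic samples, and the osteoclast gene Calcr lay under the filter. Of 7 osteoblast markers, 6 and 5 were higher in those comparisons, with sums of 69343 to 91820, 82786 to 135411 and 144681 to 170890. Markers of hypertrophic chondrocytes, 6 of 6 tested higher in each comparison, summed to 8651 to 13416, 35875 to 66413 and 116281 to 134942. The marker Ihh, which is part of that sum, lay under the filter. In such bulk samples a change in the number of cells of a type and a change in RNA per cell cannot be told apart. The part of these cells in the Vdr signal was not tested.

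Genes listed as vitamin D targets were few above the filter, with 5 of 10 tested. Of the 5, 3 rose and 1 fell in the hypertrophic against the round layer, where 12.4% of all genes rose and 12.7% fell. Their median log2 difference was 0.62, beside 0.01 for all genes. Phex, an endopeptidase of bone and cartilage mineralisation, had signals of 270, 216 and 294 in the round layer, 528, 668 and 398 in the flat layer and 3181, 3106 and 3219 in the hypertrophic layer. Tnfsf11, the osteoclast-inducing ligand RANKL, had 155, 199 and 176, then 433, 421 and 516, then 1145, 980 and 761 in the same layers. Both genes lay higher in every hypertrophic array than in any flat array, and higher in every flat array than in any round array. Phex rose by 3.49 ± 0.19 on the log2 scale in the hypertrophic against the round layer (limma adjusted p = 1.15e-07) and Tnfsf11 by 2.27 ± 0.20 (limma adjusted p = 5.7e-06). The transcriptional cofactor gene Mn1 fell by 1.43 ± 0.25 on the log2 scale. In the hypertrophic against the flat layer 3 of 5 rose and 1 fell, and Ank, a pyrophosphate exporter, rose by 1.41 ± 0.16 on the log2 scale. Of all genes, 6.12% rose and 5.22% fell in that comparison. Of the same 5, 2 rose and 1, Ank, fell in the flat against the round layer, where 8.39% of all genes rose and 8.64% fell. The catabolic enzyme gene Cyp24a1, the usual marker of vitamin D signalling, lay under the filter with signals of 4 to 90.5.

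Thra encodes thyroid hormone receptor alpha, the main thyroid receptor of the skeleton. On the probe set 1454675_at its signals were 2333, 2592 and 2298 in the round layer, 1532, 1931 and 2238 in the flat layer and 1175, 1558 and 1475 in the hypertrophic layer. Every round array lay above every flat array and above every hypertrophic array, while the flat and hypertrophic arrays overlapped. Thra was 1.71-fold lower in the hypertrophic layer than in the round layer (log2 difference -0.78 ± 0.14, limma adjusted p = 0.00131). Hypertrophic minus flat was -0.42 ± 0.14 (limma adjusted p = 0.07), and it passed when the round array of litter 1 was left out (limma adjusted p = 0.0331). All 3 Thra probe sets above the filter were lower in the hypertrophic layer than in the round layer, at -0.78, -0.60 and -0.84. Thrb, the other thyroid receptor, lay under the filter, with signals of 4.32 to 106 and a median of 70.4.

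Genes that activate, carry or break down hormones for these receptors were listed as well, and 11 of the 18 on the array were tested. Of these, 2 rose and 1 fell in the hypertrophic against the round layer, where 12.4% of all genes rose and 12.7% fell. Slc16a10, a thyroid hormone and aromatic amino acid transporter, rose by 1.12 ± 0.23 on the log2 scale (limma adjusted p = 0.00396). Hsd11b2, the enzyme that inactivates glucocorticoids, fell by 2.09 ± 0.43 (limma adjusted p = 0.00368). Its signals were 280, 308 and 283 in the round layer, 275, 176 and 313 in the flat layer and 21.8, 14.3 and 186 in the hypertrophic layer, so the hypertrophic array of litter 3 stood near the other layers. The signals of 21.8 and 14.3 lay below the 26 added to every signal before the log2, which sets the size of a fitted difference there. Of the same 11, 2 rose and 1 fell in the hypertrophic against the flat layer, where 6.12% of all genes rose and 5.22% fell. Hsd17b12, a steroid and fatty acid dehydrogenase, and Hsd17b11 rose by 0.61 ± 0.13 and 0.50 ± 0.12 on the log2 scale, and Hsd11b2 fell by 1.89 ± 0.43 (limma adjusted p = 0.00849, 0.0194 and 0.014). No gene on this list rose in the flat against the round layer and 1, Hsd17b11, fell, by 0.57 ± 0.12 on the log2 scale. Of all genes, 8.39% rose and 8.64% fell in that comparison.

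The retinoid receptors comprise the retinoic acid receptors Rara, Rarb and Rarg and the retinoid X receptors Rxra, Rxrb and Rxrg, and all 6 were tested. Rxra and Rxrb were lower in the hypertrophic layer than in the round layer, and Rarb was higher in the flat layer than in the round layer. On the probe set 1454773_at Rxra had signals of 1457, 1605 and 1497 in the round layer, 979, 1093 and 913 in the flat layer and 879, 945 and 866 in the hypertrophic layer. The round arrays stood apart from both other layers, whose arrays overlapped. Rxra was 1.52-fold lower in the flat layer than in the round layer (log2 difference -0.60 ± 0.13, limma adjusted p = 0.00708) and 1.67-fold lower in the hypertrophic layer than in the round layer (-0.74 ± 0.13, limma adjusted p = 0.00118). The other Rxra probe set above the filter, a separate design, did not show this, with -0.07 and 0.07. When probe sets were averaged within a gene the differences were -0.34 and -0.34, and neither passed (limma adjusted p = 0.187 and 0.15). The lower flat signal also did not pass with the muscle score as a covariate (limma adjusted p = 0.456).

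Rxrb, on the probe set 1416990_at, had signals of 4602, 2659 and 1492 in the round layer, 1978, 1984 and 1408 in the flat layer and 1610, 1480 and 1326 in the hypertrophic layer. The round layer was spread over a wide range between litters, and its array of litter 3 lay inside the range of the hypertrophic arrays. Within each litter the order was the same, with the hypertrophic array below the round array. Rxrb was 1.78-fold lower in the hypertrophic layer than in the round layer (log2 difference -0.83 ± 0.21, limma adjusted p = 0.0112). Without the round array of litter 1, which had the high 3'/5' ratios, the difference was -0.51 and passed (limma adjusted p = 0.0371). It did not pass without the hypertrophic array of litter 1 (-0.66, limma adjusted p = 0.0801), without that of litter 2 (-0.80, limma adjusted p = 0.0613), or without the litter block (limma adjusted p = 0.0946). Flat minus round was -0.57 ± 0.21 (limma adjusted p = 0.0839), and it passed when the round array of litter 3 was left out (-0.86, limma adjusted p = 0.00927) and with the muscle score as a covariate (-1.76, limma adjusted p = 0.032).

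Rarb, itself a classic target of retinoic acid, had signals of 127, 162 and 102 in the round layer, 333, 251 and 281 in the flat layer and 324, 135 and 153 in the hypertrophic layer on the probe set 1454906_at. Every flat array lay above every round array, and the hypertrophic array of litter 1 lay with the flat arrays. Rarb was 2.03-fold higher in the flat layer than in the round layer (log2 difference 1.02 ± 0.30, limma adjusted p = 0.0352). This was the least stable of the differences that passed: it was lost under 12 of 21 alternatives. Among them were leaving out the round array of litter 1 (0.79, limma adjusted p = 0.129), the flat array of litter 3 (0.90, limma adjusted p = 0.149) or both (0.55, limma adjusted p = 0.429). It was also lost without the round array of litter 3, the flat array of litter 1 or 2, or the hypertrophic array of litter 3 (limma adjusted p = 0.0541 to 0.101). Without the litter block the adjusted p from limma was 0.0735. The muscle markers, described below with Ppara, also rose in the flat layer, and with the muscle score as a covariate the Rarb difference was 2.12 and did not pass (limma adjusted p = 0.151).

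Rxrg, the retinoid X receptor of skeletal muscle, had signals of 227, 195 and 213 in the round layer, 461, 374 and 514 in the flat layer and 17.6, 266 and 401 in the hypertrophic layer. The flat arrays lay above the round arrays, but the hypertrophic layer ran across both, with litter 1 far below the rest. Flat minus round was 0.99 ± 0.54 (limma adjusted p = 0.241) and hypertrophic minus flat was -1.42 ± 0.54 (limma adjusted p = 0.116). Without the hypertrophic array of litter 1, flat minus round was again 0.99 and passed (limma adjusted p = 0.00726). With the muscle score as a covariate it was -2.41 (limma adjusted p = 0.207). Rara and Rarg did not pass in any pairwise comparison, with signals of 115 to 291 and 1066 to 1839 over the 9 arrays. For Rarg, hypertrophic minus round was -0.37 ± 0.15 (limma adjusted p = 0.101), and it passed without the round array of litter 1 (-0.50, limma adjusted p = 0.0388).

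Retinoic acid target and handling genes went in both directions, with 8 of 11 tested. In the flat against the round layer 1 rose and 2 fell, and in the hypertrophic against the round layer 2 rose and 2 fell. Of all genes, 8.39% rose and 8.64% fell in the first comparison and 12.4% rose and 12.7% fell in the second. Stra6, a cell-surface transporter of vitamin A, had signals of 9.37, 29.1 and 11.8 in the round layer, 735, 1029 and 407 in the flat layer and 378, 372 and 473 in the hypertrophic layer. It rose in the flat against the round layer (limma adjusted p = 7.18e-06). Its round signals lay near or below the pseudocount of 26, which sets the size of a fitted difference there, so no fold is given. Cyp26b1, which degrades retinoic acid, had 1809, 1295 and 908, then 1073, 492 and 293, then 625, 407 and 270.3 in the same layers. It fell by 1.21 ± 0.18 in the flat and by 1.59 ± 0.18 in the hypertrophic layer against the round layer on the log2 scale (limma adjusted p = 0.000538 and 3.88e-05). Rarres2, the chemerin gene, fell in both as well, with log2 differences of -1.21 ± 0.27 and -2.29 ± 0.27, and it fell by 1.08 ± 0.27 in the hypertrophic against the flat layer. Of the 8 tested, Rarres2 alone passed in that last comparison, where 11.3% of all genes passed.

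Among the steroid receptors only Esr1 and Nr3c1 were above the filter. Esr1 encodes oestrogen receptor alpha, which mediates the effect of oestrogen on growth plate closure. On the probe set 1460591_at its signals were 717, 950.2 and 945 in the round layer, 251, 372 and 272 in the flat layer and 354, 435 and 339 in the hypertrophic layer. All round arrays were above all others, and the flat and hypertrophic arrays overlapped, although in each litter the flat array was the lowest. Esr1 was 2.78-fold lower in the flat layer than in the round layer (log2 difference -1.47 ± 0.17, limma adjusted p = 0.000125) and 2.22-fold lower in the hypertrophic layer than in the round layer (-1.15 ± 0.17, limma adjusted p = 0.000401). Hypertrophic minus flat was 0.32 ± 0.17 (limma adjusted p = 0.291), and the flat layer was below the mean of its neighbours by 0.90 ± 0.15 on the log2 scale (limma adjusted p = 0.00323). The fall in the flat layer did not pass with the muscle score as a covariate (-1.12, limma adjusted p = 0.216), and the fall in the hypertrophic layer passed under all 21 alternatives. Perichondrium, fibroblast and tendon markers, of which 7 of 11 fell and 2 rose in the hypertrophic against the round layer, summed to 254033 to 290162, 209699 to 279979 and 189451 to 210532 in round, flat and hypertrophic samples. Their part in the Esr1 signal was not tested.

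Nr3c1, the glucocorticoid receptor, had similar signals across the layers, with 949.7, 1284 and 1612 in the round layer, 1061, 1363 and 1261 in the flat layer and 1017, 1034 and 1244 in the hypertrophic layer. All layers overlapped. Its log2 differences were -0.04 for flat minus round, -0.16 for hypertrophic minus flat and -0.19 for hypertrophic minus round, each ± 0.15 (limma adjusted p = 0.905, 0.589 and 0.389). None of its 4 probe sets above the filter passed in any of these comparisons. Esr2, Nr3c2 and Pgr, which encode oestrogen receptor beta, the mineralocorticoid receptor and the progesterone receptor, had median signals of 11.4, 56.3 and 54.6 and lay under the filter.

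Genes listed as glucocorticoid targets went in both directions. Of 14 tested, 2 rose and 6 fell in the hypertrophic against the round layer, where 12.4% of all genes rose and 12.7% fell. Their median log2 difference was -0.50, beside 0.01 for all genes. The flat against the round layer had 1 that rose and 4 that fell, where 8.39% of all genes rose and 8.64% fell. Errfi1, a feedback inhibitor of the EGF receptor, fell by 1.30 ± 0.13 in the hypertrophic layer against the round layer, and Klf9, a transcription factor, fell by 1.06 ± 0.13. Ddit4, an inhibitor of mTOR that also responds to low oxygen, rose by 1.58 ± 0.21. Dusp1, a phosphatase of MAP kinases, fell by 1.11 ± 0.15 in the flat against the round layer, and it is also on the list of immediate early genes below. Cdkn1c, an inhibitor of the cell cycle, fell by 0.74 ± 0.14 in the hypertrophic against the flat layer, where 1 listed gene rose and 3 fell. Of all genes, 6.12% rose and 5.22% fell in that comparison. Among 7 steroid receptor chaperones, Hsp90aa1 rose by 0.38 ± 0.12 in the flat against the round layer, where 8.39% of all genes rose. In the hypertrophic against the round layer Hsp90aa1 and Stip1 rose by 0.51 ± 0.12 and 0.54 ± 0.16, where 12.4% of all genes rose.

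Of the lipid and bile acid sensing receptors, only Ppara and Ppard were above the filter. Ppara encodes a fatty acid sensor that drives fatty acid oxidation in muscle and liver. On the probe set 1449051_at its signals were 41.8, 26.1 and 175 in the round layer, 277, 239.5 and 624 in the flat layer and 80.8, 152 and 210.3 in the hypertrophic layer. All flat arrays lay above all others, and in every layer litter 3 had the highest signal. Ppara was 4.19-fold higher in the flat layer than in the round layer (log2 difference 2.07 ± 0.34, limma adjusted p = 0.00111). It was 2.26-fold lower in the hypertrophic than in the flat layer (-1.18 ± 0.34, limma adjusted p = 0.0416). The round layer's mean lay under the filter, so Ppara was tested on account of the layer where it is high. The second Ppara probe set above the filter gave 1.24 and -1.51, and neither passed when all probe sets were fitted together (limma adjusted p = 0.0857 and 0.0562). In that fit 1449051_at passed for flat minus round (limma adjusted p = 0.00157) and not for hypertrophic minus flat (limma adjusted p = 0.0535).

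The Ppara signal ran with the muscle markers. Of 19 skeletal muscle markers, 19 rose in the flat against the round layer and 16 fell in the hypertrophic against the flat layer. Their summed signal was 156320 to 255457, 367637 to 591454 and 155927 to 366824 in round, flat and hypertrophic samples. The flat array of litter 3, with the highest muscle score, also had the highest Ppara signal, and the round array of litter 2, with the lowest score, had the lowest. With the score as a covariate the flat minus round difference was 1.74 and did not pass (limma adjusted p = 0.352), and hypertrophic minus flat was -0.93 (limma adjusted p = 0.591). Without the flat array of litter 3 the hypertrophic minus flat difference did not pass (limma adjusted p = 0.136), nor did it without the flat array of litter 1 or 2 or the hypertrophic array of litter 1 or 3 (limma adjusted p = 0.088 to 0.226). Layer and muscle score move together in these samples, so the covariate also takes up part of any layer difference.

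**Figure D3:**
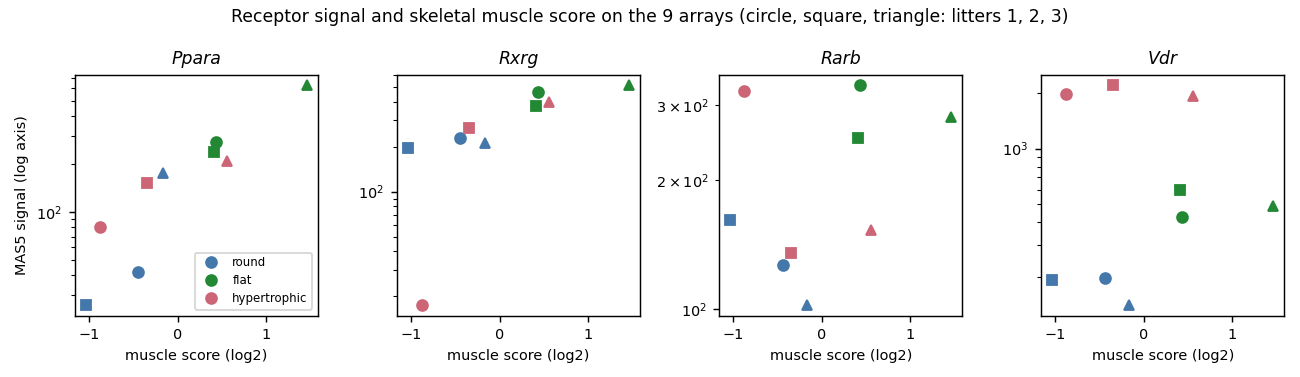
MAS5 signal (y axis, log scale, a different range in each panel) of Ppara, Rxrg, Rarb and Vdr against the skeletal muscle score (x axis, mean log2 level of 19 markers relative to all arrays) on the 9 arrays, with colour for the layer and shape for the litter. The flat array of litter 3 has the highest score, 1.47, and the highest Ppara and Rxrg signals, while the 3 hypertrophic Vdr signals, 1921 to 2202, spread over scores of -0.88 to 0.56.

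Ppard, the PPAR of wide tissue distribution, varied little, between 219 and 348 over the 9 arrays, with log2 differences of -0.08, 0.03 and -0.05. Pparg, the adipocyte receptor, lay under the filter with a median signal of 104, as did the LXR gene Nr1h3 (100.2), the bile acid receptor gene Nr1h4 (48.8) and the xenobiotic receptor genes Nr1i2 (51.3) and Nr1i3 (14.9). Of 5 adipocyte markers above the filter, Lpl alone rose in the flat and in the hypertrophic against the round layer, while Cidec and Lep lay under the filter.

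Of 17 PPAR targets tested, 4 rose and none fell in the flat against the round layer, 2 rose and 1 fell in the hypertrophic against the flat layer, and 5 rose and none fell in the hypertrophic against the round layer. Of all genes, 8.39%, 6.12% and 12.4% rose and 8.64%, 5.22% and 12.7% fell in these comparisons. The 19 muscle markers all rose in the first of them, and their part in this list was not tested. Acadl, an enzyme of fatty acid oxidation, rose by 0.88 ± 0.18 on the log2 scale in the flat against the round layer, with its highest signal, 7022, on the flat array of litter 3. Pdk4, which restrains glucose oxidation, rose by 1.04 ± 0.22 in the flat and by 1.22 ± 0.22 in the hypertrophic against the round layer. Lpl, lipoprotein lipase, rose by 0.94 ± 0.23 and 1.52 ± 0.23 in the same comparisons, and Slc25a20, the carnitine carrier, rose by 0.79 ± 0.16 in the hypertrophic against the round layer. Between the hypertrophic and the flat layer the lipid droplet gene Plin2 rose by 0.81 ± 0.14, Angptl4, an inhibitor of lipoprotein lipase, rose by 0.97 ± 0.25, and Plin4 fell by 1.203 ± 0.31. Of 11 LXR targets, 5 rose and 1 fell in the hypertrophic against the round layer, where 12.4% of all genes rose and 12.7% fell. Among those that rose were the cholesterol exporter Abca1 (0.95 ± 0.18) and the desaturases Scd1 (1.004 ± 0.15) and Scd2 (0.71 ± 0.16).

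The orphan receptors form the largest class, with 22 of 23 genes on the array and 14 tested. In the flat against the round layer 4 of the 14 fell and none rose, where 8.64% of all genes fell and 8.39% rose. In the hypertrophic against the round layer 5 fell and none rose, where 12.7% of all genes fell and 12.4% rose. The orphan receptors divide into the clock receptors, the NR4A genes and a group without a difference that passed.

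Nr4a1, Nr4a2 and Nr4a3 encode receptors with no known natural ligand, and they are induced within minutes of many stimuli, so that their amount sets their activity. All 3 were lower in both later layers than in the round layer. Nr4a2, on the probe set 1447863_s_at, had signals of 3785, 5196 and 5551 in the round layer, 1840, 2164 and 1048 in the flat layer and 1221, 1174 and 1070 in the hypertrophic layer. Its round arrays lay far above the rest, and the flat array of litter 3 lay below all hypertrophic arrays while the other flat arrays lay above them. Nr4a2 was 2.94-fold lower in the flat layer than in the round layer (log2 difference -1.55 ± 0.21, limma adjusted p = 0.000345) and 4.07-fold lower in the hypertrophic layer than in the round layer (-2.03 ± 0.21, limma adjusted p = 2.21e-05). With the muscle score as a covariate the flat minus round difference was -0.63 and did not pass (limma adjusted p = 0.538). Hypertrophic minus flat was -0.47 ± 0.21 (limma adjusted p = 0.194), and without the flat array of litter 3 it was -0.80 and passed (limma adjusted p = 0.0153). All 5 Nr4a2 probe sets above the filter were lower in both layers than in the round layer, between -0.67 and -1.75 in the flat and between -0.69 and -2.03 in the hypertrophic layer. For hypertrophic minus flat they did not share a sign. There 3 were higher and 2 lower, between -0.47 and 0.41, and none passed with all probe sets fitted together.

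Nr4a3, on the probe set 1438796_at, had signals of 601, 794 and 760 in the round layer, 224, 585 and 325 in the flat layer and 186, 166 and 224 in the hypertrophic layer. The round arrays again lay above all others, and the flat layer spread widely, with litter 2 close to the round arrays. Nr4a3 was 1.96-fold lower in the flat layer than in the round layer (log2 difference -0.97 ± 0.25, limma adjusted p = 0.0199) and 3.41-fold lower in the hypertrophic layer than in the round layer (-1.77 ± 0.25, limma adjusted p = 0.000268). The fall in the flat layer did not pass without any single round array (limma adjusted p = 0.059 to 0.0635), without the flat array of litter 1 (-0.74, limma adjusted p = 0.121) or without that of litter 3 (-0.85, limma adjusted p = 0.0966). It was lost as well with the muscle score as a covariate (-0.56, limma adjusted p = 0.724) and without the litter block (limma adjusted p = 0.0617).

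Nr4a1, on the probe set 1416505_at, had signals of 1564, 7601 and 5243 in the round layer, 1052, 3648 and 2586 in the flat layer and 1304, 2456 and 2397 in the hypertrophic layer. The layers overlapped because litter 1 was lowest in each of them, and within every litter the round array was the highest. Nr4a1 was 1.83-fold lower in the flat layer than in the round layer (log2 difference -0.88 ± 0.20, limma adjusted p = 0.0096) and 2-fold lower in the hypertrophic layer than in the round layer (-0.999 ± 0.20, limma adjusted p = 0.00301). Without the litter block neither passed (limma adjusted p = 0.372 and 0.246). Without the round array of litter 2 the flat minus round difference was -0.68 (limma adjusted p = 0.0792). With the muscle score as a covariate it was 0.38, of the opposite sign (limma adjusted p = 0.609). The flat layer did not pass against the mean of its neighbours for Nr4a1 or Nr4a2, and both passed without the round array of litter 1 (-0.51 and -0.66, limma adjusted p = 0.0342 and 0.0248).

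The promoters of the 3 genes are shown because the genes moved together across the layers. Each is the 250 bases upstream of the start in the RefSeq annotation of GRCm38.p6, written 5′ to 3′ along the gene, with TGACG, the core of the cAMP response element, in capitals (CGTCA where it lies on the opposite strand). They lie at chr15:101266596-101266845 (Nr4a1, plus strand), chr2:57124004-57124253 (Nr4a2, minus strand) and chr4:48045055-48045304 (Nr4a3, plus strand).
Nr4a1: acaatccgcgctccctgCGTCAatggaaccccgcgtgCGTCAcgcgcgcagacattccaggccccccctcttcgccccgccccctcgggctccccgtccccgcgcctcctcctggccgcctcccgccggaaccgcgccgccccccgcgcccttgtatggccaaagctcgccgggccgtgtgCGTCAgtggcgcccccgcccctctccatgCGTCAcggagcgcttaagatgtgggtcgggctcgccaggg
Nr4a2: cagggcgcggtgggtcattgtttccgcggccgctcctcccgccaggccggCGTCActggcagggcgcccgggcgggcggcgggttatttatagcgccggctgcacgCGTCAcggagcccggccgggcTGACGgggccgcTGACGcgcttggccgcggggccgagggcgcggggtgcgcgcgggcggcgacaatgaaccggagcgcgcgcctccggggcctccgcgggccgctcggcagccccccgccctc
Nr4a3: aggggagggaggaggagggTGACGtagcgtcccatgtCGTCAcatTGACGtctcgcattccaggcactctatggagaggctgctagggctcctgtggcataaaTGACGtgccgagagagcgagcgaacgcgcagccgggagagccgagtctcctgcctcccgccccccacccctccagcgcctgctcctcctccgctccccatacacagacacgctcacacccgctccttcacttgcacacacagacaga

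Each of the 3 promoters holds 4 copies of TGACG, counted on both strands. Of the 32851 promoters of this length, 17.8% hold at least 1 copy and 45 (0.137%) hold at least 4. None of the 3 holds the palindrome TGACGTCA, which 1.55% of promoters hold, or AGGTCA. The motif was chosen after these sequences were seen, and whether a factor binds there was not measured.

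The list of other immediate early genes holds genes that, like the NR4A genes, are switched on quickly by stimuli. Of 16 tested, 10 fell and none rose in the flat against the round layer, where 8.64% of all genes fell, with a median log2 difference of -0.79 beside -0.01 for all genes. The hypertrophic against the round layer had 9 that fell and none that rose, where 12.7% of all genes fell, with a median of -0.60. In the hypertrophic against the flat layer 2 rose, Egr3 (0.74 ± 0.22) and Junb (0.51 ± 0.15), where 6.12% of all genes rose. Egr1, a zinc finger factor of this kind, had signals of 16477, 26605 and 21277 in the round layer, 6100, 12014 and 7231 in the flat layer and 6338, 8285 and 5761 in the hypertrophic layer. Its round arrays stood above all others. Egr1 fell by 1.38 ± 0.14 in the flat and by 1.65 ± 0.14 in the hypertrophic against the round layer on the log2 scale (limma adjusted p = 3.59e-05 and 3e-06). Fos, part of the AP-1 complex, fell by 1.28 ± 0.19 and 1.29 ± 0.19 in the same comparisons. The mean log2 level of the 16 genes relative to all arrays was 0.07, 0.95 and 0.40 on the round arrays, -0.51, 0.05 and -0.38 on the flat arrays and -0.31, -0.004 and -0.26 on the hypertrophic arrays. Litter 1 was lowest in each layer, as for Nr4a1. The part of this shared behaviour in the NR4A differences was not tested.

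Nr1d1 and Nr1d2 encode the repressors REV-ERB alpha and beta of the circadian clock, and Rora encodes an activator that binds the same DNA elements. Nr1d1, on the probe set 1426464_at, had signals of 188, 199.8 and 533 in the round layer, 21.8, 53.2 and 236 in the flat layer and 63.0, 136 and 250.3 in the hypertrophic layer. The layers overlapped because litter 3 was the highest in each of them, and within every litter the round array was highest and the flat array lowest. Nr1d1 was 3.01-fold lower in the flat layer than in the round layer (log2 difference -1.59 ± 0.33, limma adjusted p = 0.00514). Hypertrophic minus round was -0.92 ± 0.33 (limma adjusted p = 0.0583), and it passed without the flat array of litter 1 (limma adjusted p = 0.0492). The flat layer's mean lay under the filter, and the flat minus round difference did not pass without the litter block (limma adjusted p = 0.142) or with the muscle score as a covariate (-2.34, limma adjusted p = 0.178). With a pseudocount of 104 it was -1.02 and passed. The flat layer was also below the mean of its neighbours by 1.13 ± 0.28 on the log2 scale (limma adjusted p = 0.0257), which was lost under 8 of 21 alternatives, among them leaving out the round array of litter 3, the flat array of litter 1 or 2 or the hypertrophic array of litter 2 (limma adjusted p = 0.05004 to 0.144).

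On the probe sets used for the genes, Nr1d2 and Rora fell in the hypertrophic against the round layer and passed in neither step between neighbouring layers. Nr1d2, on the probe set 1416958_at, had signals of 1788, 2394 and 2254 in the round layer, 1496, 1209 and 2116 in the flat layer and 1267, 996 and 1412 in the hypertrophic layer. Its round and hypertrophic arrays did not overlap, and the flat arrays spanned the space between them. Nr1d2 was 1.74-fold lower in the hypertrophic layer than in the round layer (log2 difference -0.80 ± 0.17, limma adjusted p = 0.00474). Its steps were -0.44 ± 0.17 for flat minus round and -0.36 ± 0.17 for hypertrophic minus flat (limma adjusted p = 0.106 and 0.222). Rora, on the probe set 1424034_at, had 681, 810.1 and 854 in the round layer, 604, 569 and 585 in the flat layer and 385, 466 and 507 in the hypertrophic layer. The arrays of the 3 layers did not overlap, and Rora was 1.69-fold lower in the hypertrophic layer than in the round layer (-0.76 ± 0.16, limma adjusted p = 0.00411). The steps of Rora were -0.39 ± 0.16 and -0.36 ± 0.16 in the same order (limma adjusted p = 0.115 and 0.181). All 6 Rora probe sets above the filter were lower in the hypertrophic than in the round layer, between -0.42 and -0.90, and 2 passed. For hypertrophic minus flat all 6 were lower too, between -0.26 and -0.89. With all probe sets fitted together 1 passed in that step (-0.89, limma adjusted p = 0.0139). It was not the probe set used for the gene. For flat minus round 2 were higher and 4 lower, between -0.39 and 0.07, and none passed.

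Of 15 other clock genes tested, 8 fell and 1 rose in the hypertrophic against the round layer, where 12.7% of all genes fell, with a median log2 difference of -0.79 beside 0.01 for all genes. Cry2, a repressor of the clock, had signals of 1538, 1481 and 1449 in the round layer, 771, 662 and 739.9 in the flat layer and 504, 454 and 656 in the hypertrophic layer, and it fell by 1.44 ± 0.15 on the log2 scale in the hypertrophic against the round layer (limma adjusted p = 2.53e-05). Per1, another repressor, fell by 0.83 ± 0.15 and Dbp, a clock output gene, by 1.17 ± 0.26 in the same comparison. Per1 also differed between litters, with 1546, 3504 and 5210 in the round layer, 1412, 3345 and 3111 in the flat layer and 919, 1845 and 2875 in the hypertrophic layer, and litter 1 was lowest in all of them. Between the hypertrophic and the flat layer Bhlhe40 rose by 0.84 ± 0.15 and Hlf and Per1 fell by 1.42 ± 0.30 and 0.52 ± 0.15. Of all genes, 6.12% rose and 5.22% fell in that comparison. Of the 15, Cry2 alone passed in the flat against the round layer, where 17.0% of all genes passed. There Cry2 fell by 1.02 ± 0.15. The time of day of collection is not given in the sources used here.

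The remaining 8 tested orphan receptors did not pass in any pairwise comparison. Nr2c1 and Nr2c2, the testicular receptors TR2 and TR4, had signals of 296 to 532 and 1521 to 2820 over the 9 arrays. Nr2f1 and Nr2f2, the COUP transcription factors, ranged between 114 and 229 and between 440.3 and 733, and Nr2f2 had log2 differences of 0.01 for hypertrophic minus round, 0.06 for hypertrophic minus flat and -0.05 for flat minus round, each ± 0.17. Nr2f6, another COUP relative, had 654, 500.4 and 611 in the round layer, 657, 497 and 622 in the flat layer and 718, 730.4 and 985 in the hypertrophic layer. Its hypertrophic arrays lay above all others, but hypertrophic minus round was 0.44 ± 0.16 (limma adjusted p = 0.0675), and it passed when the hypertrophic array of litter 1 was left out (0.59, limma adjusted p = 0.0428). For Nr2c2 the same comparison was -0.39 ± 0.15 (limma adjusted p = 0.0758), and it passed when the flat array of litter 2 was left out (limma adjusted p = 0.0375).

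Esrra, the oestrogen-related receptor alpha, which activates genes of mitochondrial respiration and binds no oestrogen, ranged between 300.2 and 513. Its log2 differences were 0.31, -0.01 and 0.30, each ± 0.19, and did not pass. Esrrb ranged between 87.6 and 360, and its probe set is of a kind that can pick up related transcripts. Nr5a2, the liver receptor homologue, ranged between 43.1 and 212, and its hypertrophic mean lay under the filter. Of the respiratory genes listed as targets of the oestrogen-related receptors, 12 of 15 rose in the flat against the round layer, where 8.39% of all genes rose. Their median log2 difference was 0.79, beside -0.01 for all genes. Idh3a, of the citric acid cycle, rose by 1.26 ± 0.14, and Ndufa4, of the respiratory chain, by 0.92 ± 0.13. Between the hypertrophic and the flat layer 4 fell and none rose, among them Cox6a2 (-1.08 ± 0.25) and Ckm (-0.88 ± 0.20), which are genes of striated muscle, and in the hypertrophic against the round layer 7 rose and none fell. Of all genes, 5.22% fell in the hypertrophic against the flat layer and 12.4% rose in the hypertrophic against the round layer. The muscle markers rose in the flat against the round layer and fell in the hypertrophic against the flat layer, as given above with Ppara. Their part in this list was not tested.

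The coregulators that receptors recruit were listed as coactivators and corepressors. Of 16 coactivators, 2 rose in the flat against the round layer, where 8.39% of all genes rose. Between the hypertrophic and the flat layer 1 fell, where 5.22% of all genes fell. The hypertrophic against the round layer had 1 that rose and 1 that fell, where 12.4% of all genes rose and 12.7% fell. Ppargc1b, a partner of the PPAR and oestrogen-related receptors, had signals of 650.2, 421 and 514 in the round layer, 1260, 820 and 1083 in the flat layer and 1492, 1063 and 897 in the hypertrophic layer. Both later layers lay above the round layer on every array, and Ppargc1b rose by 0.96 ± 0.16 and 1.07 ± 0.16 in them on the log2 scale (limma adjusted p = 0.00122 and 0.000339). Ncoa1, a histone acetyltransferase coactivator, rose by 0.47 ± 0.14 in the flat against the round layer and fell by 0.48 ± 0.14 in the hypertrophic against the flat layer. Pnrc2 fell by 0.45 ± 0.12 in the hypertrophic against the round layer. None of 7 corepressors passed in any of the 3 comparisons with limma, and 1, 0 and 0 of them had an unadjusted p under 0.05. Of all genes, 17.0% passed for flat against round, 11.3% for hypertrophic against flat and 25.1% for hypertrophic against round. A list of 7 genes is too short to set against these shares.

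On the array 17 receptor genes were under the filter and were not tested, which leaves their layer pattern unmeasured here. Beside those named above they are the orphan receptor genes Nr0b1, Nr0b2, Rorb, Hnf4a, Nr2e1, Esrrg, Nr5a1 and Nr6a1. Signals of the 17 ran between 1.92 and 241 over the 9 arrays. Nr0b1, Nr5a1 and Hnf4a are known mainly from adrenal, gonad and liver, and their median signals were 19.6, 60.3 and 67.5. A low signal on a MAS5 scale can come from a weak probe set as well as from a rare transcript, so these values do not rank the genes.

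Agreement among probe sets could be checked for 14 receptor genes, those with at least 2 probe sets above the filter. For Vdr, Thra, Rora and Nr4a2 all probe sets had the same sign for hypertrophic minus round. For Rxra the 2 probe sets differed, as described above, and for Ppara, Rarg, Nr2c1, Nr2c2, Nr3c1 and Nr2f2 the sign was mixed and no probe set passed. Rxrb, Rarb, Esr1, Nr1d1, Nr1d2, Nr4a1 and Nr4a3 each rest on a single probe set above the filter.

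**Figure D4:**
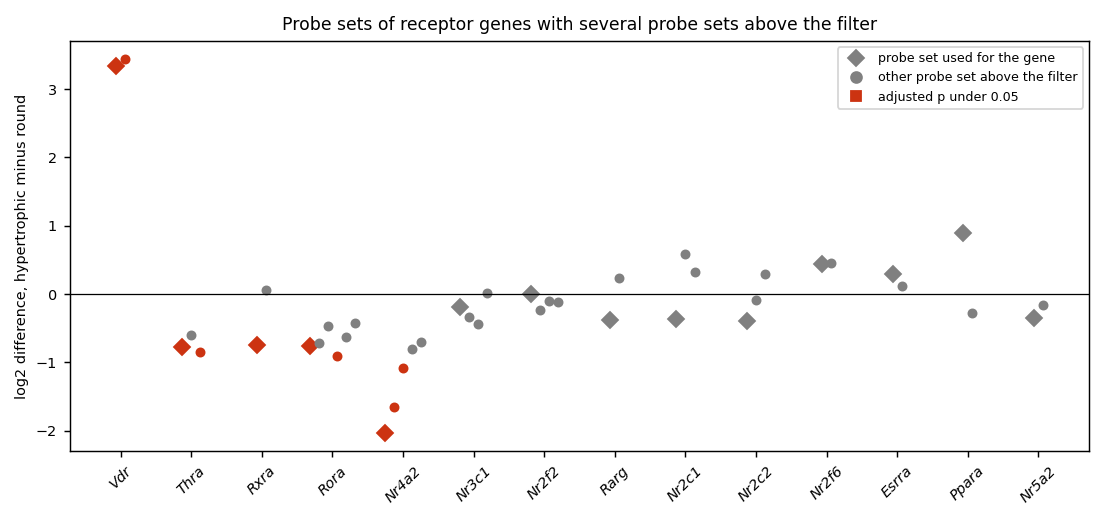
Log2 difference for hypertrophic minus round (y axis) of every probe set above the filter, for the 14 receptor genes with at least 2 (x axis). Diamonds mark the probe set used for the gene and red marks an adjusted p under 0.05 with all probe sets fitted together. The 2 Vdr probe sets stand at 3.34 and 3.43, the 5 of Nr4a2 between -2.03 and -0.69, and the 2 of Rxra at -0.74 and 0.07.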

How the data were processed

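The deposited intensities are MAS5 signals of 45101 probe sets on 9 arrays, made by the authors with Affymetrix Expression Console, per the submitters' processing notes; versions are not given in the sources used here. Labelling used 2.7 to 4.6 µg of RNA, per the labels' protocols. Every array has a trimmed mean of 500.003, so no further scaling was applied. Each gene took its probe set with the highest mean among the 34945 that match 1 gene. Signals were analysed as log2(signal + 26), where 26 is the 20th percentile of all values, which understates differences of low signals. Genes with a mean above 7.212 (a signal of 122.3, the median probe set) entered a fit in limma 3.58.1 (R 4.3.3) with layer and a litter block, a variance trend and Benjamini-Hochberg adjustment over 11313 genes in each contrast. Every adjusted p is limma's, and errors of log2 differences are standard errors, with n = 3 litters a layer.

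The labels give 3 litters, each sample from a single litter, and replicate numbers. That a number stands for the same litter in every layer is an inference. Deviations of same-numbered arrays from their layer means correlated at 0.167 to 0.517 in 9 pairs, against -0.434 to 0.081 in 18 pairs of different numbers. Because each layer was centred on its own 3 arrays, these ranges depend on each other. They cannot show that what same-numbered arrays share is the litter. Precision is limited by the number of arrays. The model was tested on simulated data. Receptor genes past the threshold were named with all signals, and from each other list up to 3 genes a comparison with the smallest adjusted p. The members and lists were chosen with earlier results of these data known. Lists share genes. Promoters came from RefSeq, for 42 of the 45 genes. The 21 alternatives changed the block, pseudocount, filter, scaling, probe set rule, variance model, muscle covariate or arrays used.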

Additional observations from a re-analysis of the deposited data

How the results depend on the processing

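The 24 receptor differences that passed, 3 of them for the flat layer against the mean of its neighbours, were refitted under 21 alternatives, which gave 504 values. Of these, 446 passed in the same direction, 57 kept the direction and did not pass, and 1 had the opposite sign, Nr4a1 for flat minus round with the muscle score as a covariate (0.38). The 57 include 23 with a single array left out, 12 with the muscle score and 9 without the litter block. The differences that passed in every alternative were those of Esr1, Nr1d2, Nr4a2, Nr4a3, Rora and Thra for hypertrophic minus round and of Vdr for hypertrophic minus flat and hypertrophic minus round, 8 in all. In the flat against the round layer, receptor genes that rose numbered 3, and 0 with the muscle score, while those that fell numbered 6, 3 without the replicate block and 1 with the muscle score. Between the hypertrophic and the flat layer 1 receptor gene fell, 0 without the block, with a pseudocount of 6.5, without the filter, with quantile normalisation or with the muscle score, 4 with array weights, 2 without a pair of arrays (round, litter 1, and flat, litter 3), and 0 to 2 with 1 array left out. Between the hypertrophic and the round layer 1 receptor gene rose, 2 without the variance trend, 3 with array weights, 2 without that pair of arrays, and 1 to 2 with 1 array left out. Against the mean of its neighbours, the flat layer had 1 receptor gene higher, 0 without the block or with the muscle score and 2 with array weights or without that pair. It had 2 lower, 1 without the block, without the filter or without that pair, 4 with array weights, 0 with the muscle score, and 1 to 4 with 1 array left out. Over all other gene lists, 23 genes rose in the flat against the round layer, 11 without the block, 15 without the trend, 3 with the muscle score and 15 to 28 with 1 array left out. On these lists 19 fell, 9 without the block and 6 with the muscle score. In the hypertrophic against the flat layer 14 rose, 6 without the block, 3 with the muscle score and 8 to 19 with 1 array left out, and 13 fell, 2 without the block, 4 without the trend, 24 with array weights, 1 with the muscle score, 18 without that pair and 2 to 17 with 1 array left out. In the hypertrophic against the round layer 29 rose, 17 without the block, 39 without that pair and 16 to 35 with 1 array left out. Over all genes, the count in the flat against the round layer was 1926, 935 without the block and 373 with the muscle score. The muscle score differs between layers, so its use as a covariate also removes layer differences, and no cause of a lost difference was tested. The probe set rule decided both Rxra differences. The fit had 4 residual degrees of freedom. Among the tested receptor genes Rxrg, Nr5a2, Ppara and Nr1d1 had the largest standard errors for flat minus round, 0.54, 0.34, 0.34 and 0.33. Members under the filter have no test.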
